A study of Arabidopsis thaliana with 35 samples.

Results

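The UDP-glycosyltransferase family of Arabidopsis was followed through a heat and cold experiment in which seedlings were treated at different times of day and with or without parts of the circadian clock. A gene was taken as a member when its short description in the deposited tables contained UDP-glucosyl transferase, UDP-glycosyltransferase or UDP-glucosyltransferase in any case of letters, and AT1G24100 and AT2G31790 were left out. This rule uses names alone, and it gave 129 members among 37898 genes. Of these, 111 carried the UDP-glucuronosyl/UDP-glucosyltransferase domain in the deposited annotation and 18 did not, among them GBSS1 (granule-bound starch synthase), DGD1 (digalactosyldiacylglycerol synthase), LEW3, SETH2 and ATTPS6, which transfer sugars to glucans, lipids, glycan anchors or other sugars.

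The 35 libraries came from whole seedlings, which had grown for 12 days at 22 °C in cycles of 12 h light and 12 h dark. The last 1 h before collection was spent in the cold (10 °C), in the heat (37 °C) or at the growth temperature, and seedlings were collected at ZT1 or ZT6 (zeitgeber time, in hours after lights on). At ZT1 the wild type (WT, Col-0) was compared with cca1lhy, which carries cca1-1 and lhy-20 in the morning clock genes CCA1 and LHY, with 4 libraries in each of the 6 groups other than WT at 10 °C, which had 3. At ZT6 WT was compared with prr7prr9, which carries prr7-3 and prr9-1 in the daytime clock genes PRR7 and PRR9, with 2 libraries in each of the 6 groups. Each mutant is 1 line in the Col-0 background, and each was measured at 1 time of day.

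UDP-glycosyltransferases move a sugar from a UDP-sugar donor onto small molecules. In plants the acceptors include auxin, abscisic acid, salicylic acid, cytokinins and brassinosteroids, whose conjugates are mostly inactive or stored, and phenylpropanoids such as flavonols, anthocyanins, sinapate and monolignols, which become soluble and can be moved into the vacuole. The proteins share a short C-terminal stretch, the plant secondary product glycosyltransferase (PSPG) box, which binds the donor, and they differ mainly in the N-terminal part, which binds the acceptor.

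The box was searched for as a fixed pattern of residues and spacing. It was found in the translated coding sequence of 94 of the 129 members. In 75 of them its core read histidine, cysteine, glycine, tryptophan, asparagine, serine. Boxes that depart from the pattern are missed, so the other members may still carry the box. The coding strand of the box (44 codons, 132 bases, RefSeq TAIR10.1) is shown for 3 pairs of relatives on which the results below turn, with the 6 core codons in capitals, so that the likeness within and between pairs can be read directly.
UGT73C1: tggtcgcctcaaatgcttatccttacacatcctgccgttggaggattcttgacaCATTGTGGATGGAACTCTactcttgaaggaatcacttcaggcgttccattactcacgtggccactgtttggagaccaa
UGT73C6: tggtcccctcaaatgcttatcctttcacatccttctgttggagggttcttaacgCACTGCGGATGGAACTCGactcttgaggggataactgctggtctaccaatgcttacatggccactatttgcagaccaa
UGT78D2: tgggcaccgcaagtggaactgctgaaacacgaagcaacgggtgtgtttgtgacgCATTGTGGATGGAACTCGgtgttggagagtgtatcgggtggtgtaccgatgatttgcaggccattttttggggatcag
UGT78D1: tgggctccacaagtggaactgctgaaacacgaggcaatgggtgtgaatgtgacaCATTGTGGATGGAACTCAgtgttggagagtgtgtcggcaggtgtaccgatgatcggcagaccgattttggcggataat
AT1G01390: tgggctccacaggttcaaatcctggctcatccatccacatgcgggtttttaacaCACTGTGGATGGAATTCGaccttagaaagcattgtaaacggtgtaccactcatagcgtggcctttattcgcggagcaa
UGT72B3: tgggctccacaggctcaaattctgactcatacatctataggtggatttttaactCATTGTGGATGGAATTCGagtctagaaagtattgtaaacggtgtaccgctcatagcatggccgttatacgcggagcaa
Within the pairs the boxes were identical at 108 of 132 bases (UGT73C1 and UGT73C6, 81.8%), 112 (UGT78D2 and UGT78D1, 84.8%) and 113 (AT1G01390 and UGT72B3, 85.6%), and between boxes of different pairs at 54.5% to 64.4%.

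The members lay on all 5 chromosomes (32, 28, 28, 15 and 26 on chromosomes 1 to 5), and 67 of them stood in 22 tandem arrays, taken as runs of members with at most 1 protein-coding gene between neighbours. The largest array held 7 members (AT3G46650 to AT3G46720, chromosome 3, 17185453 to 17212541 in TAIR10.1). Close copies can share reads. Of all members, 19 had a 75-base exon window (the read length) that occurs elsewhere in the genome, and the share of such windows was over 10% only in AT4G27570 (10.6%), with 9.65% in its neighbour AT4G27560, 8.08% in AT2G36770 and 7.01% in AT2G36780, so the values of these 4 genes are the least certain.

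The deposited values are log2 CPM (counts per 1e6 reads), normalised by the authors within each time of day, and levels were therefore not compared between ZT1 and ZT6. The steps between low values gave 1.1 to 9.71 M reads (M for 1e6) per library at ZT1 and 10.9 to 29.4 M at ZT6, so that ZT1 libraries resolve low members less well: 5 to 33 members were at 0 reads in a ZT1 library and 2 to 16 in a ZT6 library. CCA1 was at 8.26 to 9.64 in WT and 2.03 to 5.29 in cca1lhy, and PRR7 at 6.52 to 8.54 in WT and 1.73 to 3.70 in prr7prr9. LHY was also lower in cca1lhy at each temperature, while PRR9 did not separate the genotypes at 22 °C (2.73 and 2.98 in WT, 2.60 and 3.25 in prr7prr9). The heat shock gene HSP101 was at 12.49 to 13.85 in heated WT libraries of ZT1 and 4.89 to 6.09 in those kept at 22 °C. The whole-seedling label was checked against 6 leaf and 8 root markers, all of which passed the filter on low values at both times, and 4 flower markers, which together gave at most 3.42 reads per 1e6 in any library.

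Among members, levels per coding length spanned a wide range in unstressed WT. At ZT1 the highest were GBSS1 with 515 ± 75.8 recovered reads per 1e6 reads and coding kb (SD, n = 4), UGT78D2 with 180 ± 13, AT1G06000 with 159 ± 35, UGT72B1 with 159 ± 14.6 and UGT88A1 with 129 ± 30.2, and these 5 held 44.7% of the family total. GBSS1 stood above the spread of the rest, whereas neighbours in the order from UGT78D2, which glucosylates flavonols and anthocyanidins, to UGT88A1 did not differ beyond their spread. At ZT6 the order was UGT88A1 (105 ± 4.82, n = 2), UGT72E1 (98.9 ± 1.94), UGT74F2 (92.6 ± 31.9), UGT85A2 (52.0 ± 4.32) and UGT71C4 (41.1 ± 1.60), with 30.7% of the family total, and the leading 3 of these did not differ beyond their spread. The median member was at 5.45 at ZT1 and 4.42 at ZT6 on the same scale, 41 and 42 members were above 10, and 32 and 36 were below 1.

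The family took 0.3655% to 0.426% of reads in WT at 22 °C at ZT1 and 0.2269% to 0.2455% at 37 °C, groups that did not overlap. In cca1lhy the same share was 0.3386% to 0.3715% at 22 °C and 0.235% to 0.2426% at 37 °C. At ZT6 heat left it nearly level in WT (0.1792% and 0.1945% at 22 °C, 0.172% and 0.1803% at 37 °C), but at 10 °C it was 0.2704% and 0.2791%, with 0.2865% and 0.288% in prr7prr9 at 10 °C against 0.1969% and 0.2214% at 22 °C. The share is a sum over members, so the highest members weigh most in it. Of the highest per coding length at ZT1, GBSS1, UGT78D2 and AT1G06000 had log2 fold changes of -1.89, -2.01 and -2.82 in WT at 37 °C. Those of UGT72B1 and UGT88A1 were -0.48 and -0.66. The part of single members in the share was not tested. In whole seedlings, fewer cells of a type and less RNA per cell cannot be told apart.

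After 1 h at 37 °C the family was called lower more often than higher at both times and in every genotype. A member was called a differentially expressed gene (DEG) at an adjusted p under 0.05 with an absolute LFC (log2 fold change) over 1, in limma fitted to all genes of a time of day with Benjamini-Hochberg adjustment. In WT at ZT1, 21 of 125 tested members fell (16.8%, against 6.3% of the 25727 genes tested) and 12 rose (9.6%, against 6.97%). In WT at ZT6, 25 of 127 fell (19.7%, against 7.16% of 31135 genes) and 10 rose (7.87%, against 7.25%). In cca1lhy 23 fell (18.4%, background 6.28%) and 8 rose (6.4%, background 6.44%), and in prr7prr9 30 fell (23.6%, background 7.45%) and 13 rose (10.2%, background 6.66%). The share that rose, 6.4% to 10.2%, was near that among all genes, whereas the share that fell was above it in each of the 4 comparisons. The median LFC of the tested members was -0.15 in WT at ZT1 and -0.22 at ZT6, against -0.06 and 0 for all genes tested. The 4 WT libraries at 37 °C at ZT1 held 1.194 to 1.541 M reads and those at 22 °C 1.097 to 3.882 M. In the other 3 comparisons the heated libraries were all shallower than those at 22 °C. They held 1.171 to 1.757 M against 1.916 to 3.247 M in cca1lhy. At ZT6 they held 10.855 and 11.578 M against 16.885 and 20.651 M in WT, and 11.374 and 12.145 M against 24.463 and 29.35 M in prr7prr9. Leaf markers also moved with heat, with 5 of 6 lower in WT at ZT1 and 2 of 6 at ZT6, and their summed level was 26017 to 37642 reads per 1e6 at 37 °C against 73756 to 75775 at 22 °C at ZT1, and 22628 to 24715 against 42494 to 53519 at ZT6. The summed root markers were at 181 to 289.9 against 303.5 to 351 reads per 1e6 at ZT1. The part of depth and of these markers in the result was not tested.

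**Figure D1:**
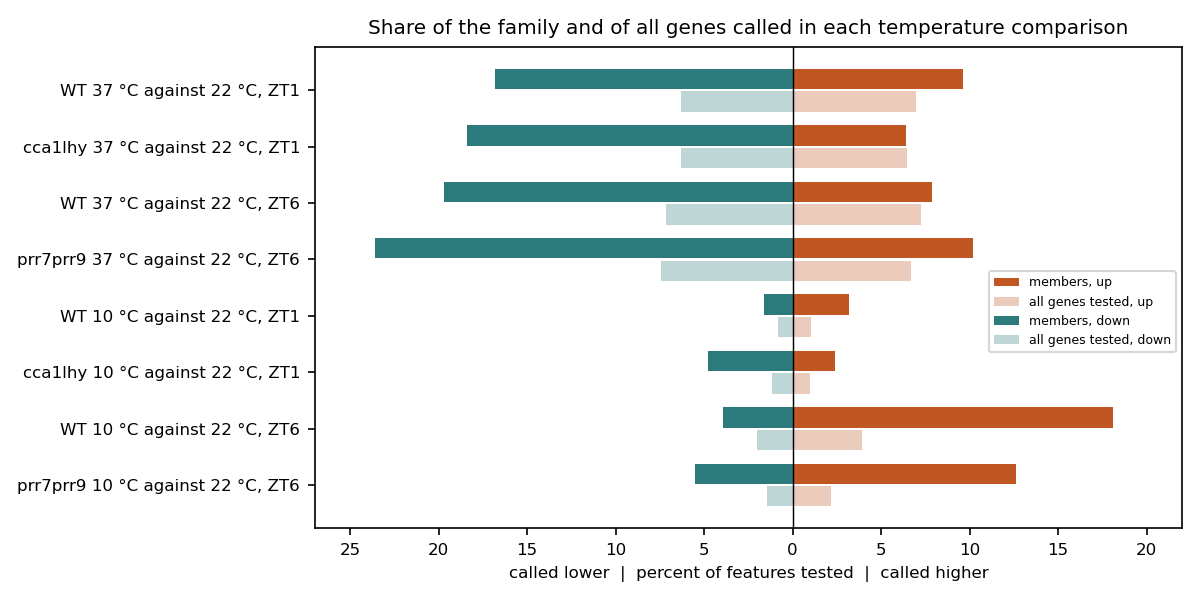
Share of family members (dark bars) and of all genes tested (pale bars) called lower (left) or higher (right) in each temperature comparison, in percent of the features tested, on axes that start at 0. The family bars reach 16.8% to 23.6% lower at 37 °C, and 18.1% higher in WT at 10 °C at ZT6.

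UGT73C1, an enzyme that acts on cytokinins, was the member that rose furthest at 37 °C in each of the 4 heat comparisons. With UGT73C6, which acts on flavonols and brassinosteroids, it forms the ends of a tandem array of 5 on chromosome 2 (15410376 to 15421866). UGT73C1 was at 2.22, 3.19, 2.61 and 3.06 log2 CPM in WT at 22 °C at ZT1 and at 5.22, 5.92, 5.43 and 4.97 at 37 °C, with no overlap (LFC 2.61 ± 0.25 SE, adjusted p = 8.7e-09). At ZT6 it went from 0.71 and 1.37 to 5.47 and 5.37 (LFC 4.38 ± 0.29, adjusted p = 1.1e-05), and it rose in cca1lhy (3.15 ± 0.25) and prr7prr9 (5.09 ± 0.29). Its response in WT was larger at ZT6 than at ZT1 by 1.76 ± 0.38 (adjusted p = 0.0047). At ZT6 its 22 °C value of 0.71 lay below the lowest ZT1 value (1.23). The part of the lower ZT1 depth, with 5 added to each count, in this difference was not tested. UGT73C6 was at 3.31, 3.45, 3.09 and 2.97 in WT at 22 °C and 4.57, 5.34, 4.78 and 4.63 at 37 °C at ZT1 (LFC 1.63 ± 0.23, adjusted p = 5.3e-06), and at 2.35 and 2.40 against 5.27 and 4.80 at ZT6 (LFC 2.67 ± 0.24, adjusted p = 7.1e-05). Between them in the array, AT2G36780 (LFC 1.55 ± 0.27) and AT2G36770 (1.23 ± 0.26) also rose in WT at ZT1. This makes 4 of 5 members there (9.6% of all tested members and 6.97% of all genes rose). At ZT6 in WT it was 2 of 5 (7.87% of members and 7.25% of genes). AT2G36770 and AT2G36780 are 91.3% identical in coding sequence and can share reads, as given above.

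**Figure D2:**
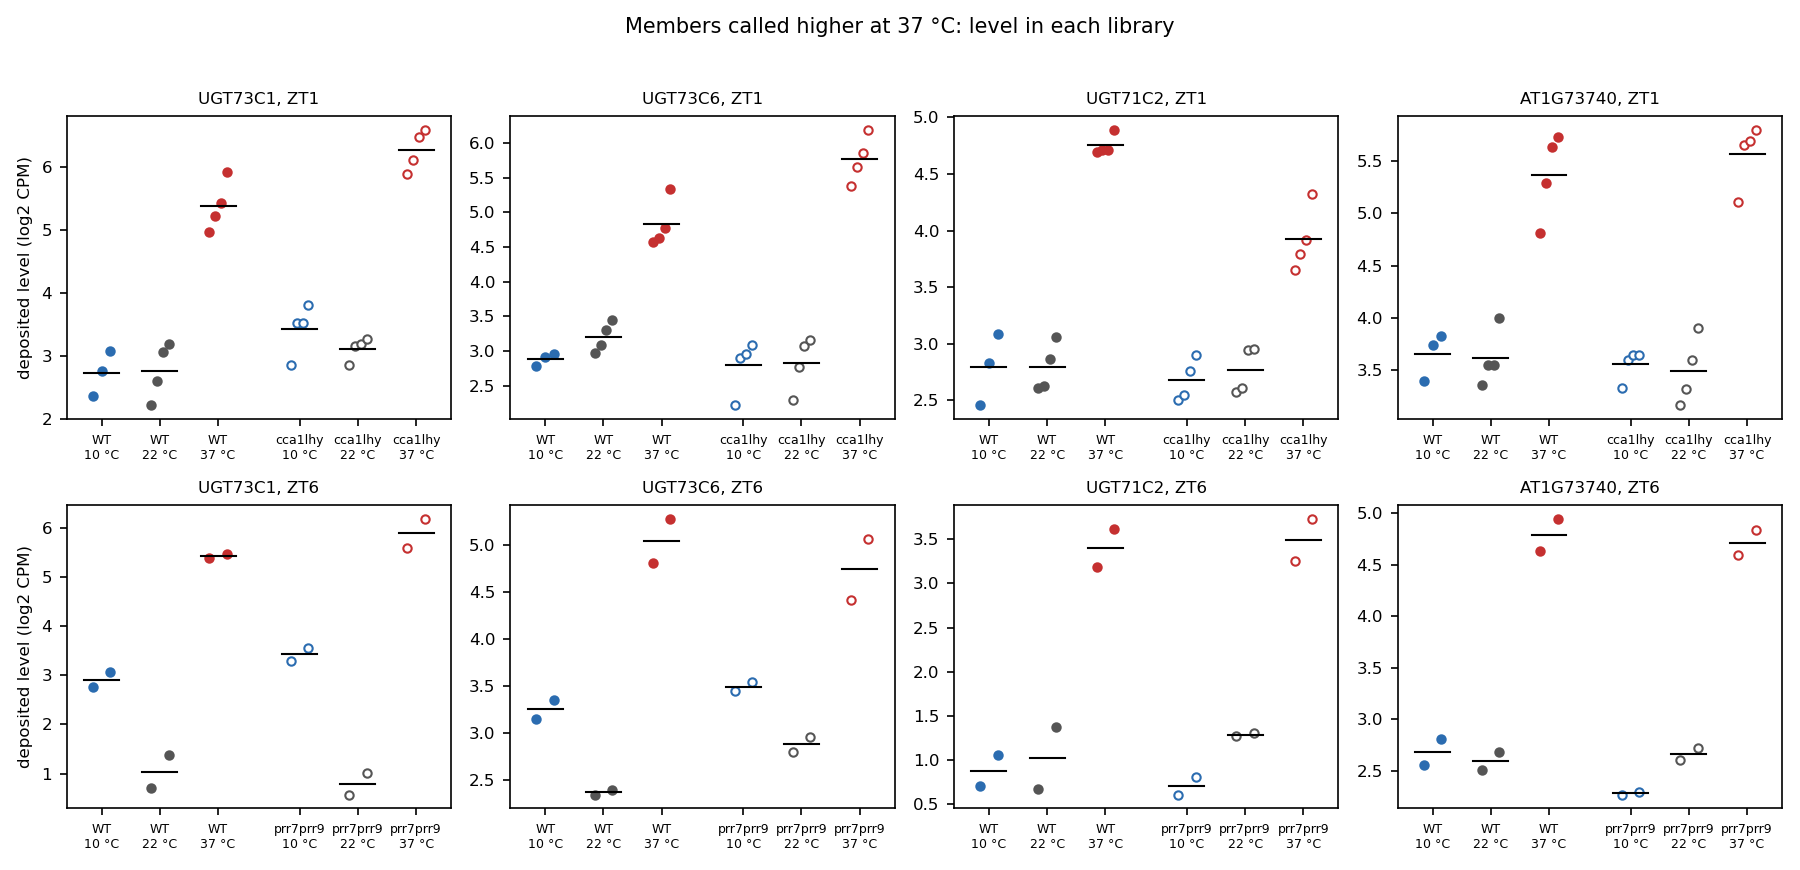
Level (log2 CPM) in every library of 4 members called higher at 37 °C in each genotype and time, with WT as filled points, mutants as open points and group means as lines. The y axes differ between panels and do not start at 0. UGT73C1 at ZT6 sits at 0.71 and 1.37 in WT at 22 °C and at 5.47 and 5.37 at 37 °C.

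In all 4 heat comparisons, which have separate 22 °C controls, 5 members rose: UGT73C1, UGT73C6, UGT71C2, AT1G73740 and DGD1. How many of all genes were called the same way in all 4 heat or all 4 cold comparisons was not counted. UGT71C2, annotated with quercetin glucosyltransferase activity, was at 2.63, 2.87, 2.61 and 3.06 in WT at 22 °C and 4.89, 4.71, 4.69 and 4.72 at 37 °C at ZT1 (LFC 1.96 ± 0.19, adjusted p = 1.5e-08), and rose by 2.38 ± 0.33 at ZT6. AT1G73740, annotated with lipid glycosylation in the chloroplast, was at 3.55, 3.55, 4.00 and 3.36 at 22 °C and 5.29, 4.82, 5.63 and 5.73 at 37 °C at ZT1 (LFC 1.75 ± 0.21, adjusted p = 4.4e-07), and rose by 2.19 ± 0.19 at ZT6. DGD1, which makes the galactolipid of chloroplast membranes, went at ZT6 from 3.82 and 4.45 to 6.46 and 6.93 in WT (LFC 2.56 ± 0.24, adjusted p = 0.0001). Neither AT1G73740 nor DGD1 has the family domain, and these 2 were the members without it that rose in WT at each time. At ZT6 the flavonol 3-O-glucosyltransferase UGT73B2 went from 3.44 and 3.11 to 5.67 and 5.52 (LFC 2.32 ± 0.24), whereas at ZT1 its LFC was 0.73 and it was not called. AT5G49690 rose from 1.80, 1.23, 1.81 and 1.23 (the lowest value of a ZT1 library is 1.23, no read) to 3.33, 3.32, 3.67 and 2.98 at ZT1 (LFC 1.81 ± 0.22), and AT2G23210 rose by 1.38 ± 0.30.

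UGT71B5 and AT5G65550 rose from levels near the detection limit. UGT71B5 was at -0.74 and -0.55 in WT at 22 °C and 1.74 and 1.91 at 37 °C at ZT6 (LFC 2.47 ± 0.39, adjusted p = 0.0022), and AT5G65550 at -1.06 and 0.00 against 1.58 and 2.19 (LFC 2.42 ± 0.39, adjusted p = 0.0025). Their windows from 250 bases before to 50 after the annotated start were the 2 among the 10 ZT6 risers with a heat shock element, the palindromes GAANNTTC or TTCNNGAA to which heat shock factors bind. UGT71B5 had 2 of them, at -141 and -41 from its start, shown in capitals (chr4:8718862-8719032, TAIR10.1, plus strand).
UGT71B5 promoter: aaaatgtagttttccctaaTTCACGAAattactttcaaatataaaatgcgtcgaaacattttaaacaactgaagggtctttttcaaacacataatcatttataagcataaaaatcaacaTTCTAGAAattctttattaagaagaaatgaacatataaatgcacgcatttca
An element of this kind was in 19 of 129 member windows (14.7%), in 2 of 12 members that rose at ZT1 (16.7%) and in 19.3% of the 27443 protein-coding windows of this length, both strands searched. Among members that fell in WT at 37 °C it was in 2 of 21 at ZT1 (9.52%) and 1 of 25 at ZT6 (4%). UGT84A2, which fell at ZT1, had it at -243 and -215. The cold-linked CCGAC core was in 13.2% of member windows and 15% of all, TGACG in 22.5% and 23.1%, the evening element AAATATCT in 6.2% and 5.65%, and the G-box CACGTG in 8.53% and 7.68%.

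Of the members that fell at 37 °C, several acted on phenylpropanoids. The flavonol group, UGT78D1 (flavonol 3-O-rhamnosyltransferase), UGT78D2, UGT78D3, the anthocyanin 5-O-glucosyltransferase AT4G14090 and UGT79B6, had 3 of 5 genes tested at ZT1. In WT 2 of them fell there (16.8% of all tested members and 6.3% of all genes did). At ZT6 none of 4 tested was called (median LFC -0.13), where 19.7% of members and 7.16% of genes fell. AT1G06000, AT4G27560 and AT4G27570 were listed with this group but left out of the count. Of these, AT1G06000 (-2.82 and -1.05) and AT4G27560 (-1.34 and -1.09) fell in WT at ZT1 and ZT6, and AT4G27570 was called at neither time. UGT78D2 was at 7.85, 7.83, 8.0 and 8.04 in WT at 22 °C and 6.22, 5.83, 5.80 and 5.82 at 37 °C at ZT1 (LFC -2.01 ± 0.13, adjusted p = 7.5e-12), but at 3.45 and 3.05 against 3.58 and 3.09 at ZT6 (LFC 0.09). UGT78D1 went from 6.61, 6.68, 7.06 and 7.09 to 4.98, 4.50, 4.86 and 4.63 at ZT1 (LFC -2.12 ± 0.20, adjusted p = 8.3e-09) and was at 4.57 and 4.03 against 4.50 and 3.90 at ZT6. For both, the heat response differed between the times, by 2.1 ± 0.34 for UGT78D2 (adjusted p = 0.0024) and 2.02 ± 0.32 for UGT78D1 (adjusted p = 0.00049). AT1G06000, the member that fell furthest in WT at ZT1, went from 7.26, 7.50, 7.92 and 7.91 to 4.70, 4.85, 4.95 and 4.79 (LFC -2.82 ± 0.19, adjusted p = 2.2e-11), and its response also differed between the times (1.77 ± 0.34, adjusted p = 0.003).

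Of the 8 hydroxycinnamate and monolignol genes, 4 fell and 1 rose in WT at ZT1, and 2 fell at ZT6. At ZT1 16.8% of all tested members fell and 9.6% rose (6.3% and 6.97% of all genes), and at ZT6 19.7% of members fell (7.16% of all genes). UGT84A2, which makes sinapoylglucose, fell at ZT1 by 1.40 on the log2 scale from 6.13, 6.16, 6.29 and 6.41 to 5.16, 4.27, 5.02 and 4.93, and had an LFC of 0.34 at ZT6. Its relative UGT84A4 fell at both times (-1.27 and -2.09 ± 0.29), UGT84A3 rose at ZT1 (1.14), and UGT84A1 was not called (-0.41 and -0.50). Of the monolignol transferases, UGT72E1 (-1.06) and UGT72E2 (-1.25) fell at ZT1 and UGT72E3 (-1.74 ± 0.40) at ZT6. AT1G01390 and UGT72B3, a pair with 83.8% coding identity, fell together in WT at ZT1 (-2.03 ± 0.25 and -2.19 ± 0.22). In WT at ZT6 neither was called (-0.18 and -0.91), but in prr7prr9 at ZT6 both fell (-1.68 ± 0.47 and -1.28 ± 0.33). UGT72E1 (-1.18) and UGT72E2 (-1.68) also fell in prr7prr9.

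Of 20 hormone-linked members, 19 were tested at each time, and in WT under heat 3 rose and 2 fell at ZT1 (background 6.97% and 6.3%) and 2 rose and 6 fell at ZT6 (background 7.25% and 7.16%). Lists by acceptor were set from known roles, with earlier results of these data known, and 6 listed members were left out of the counts. AT4G14090 was counted, although it carries no symbol in the annotation used here. The 6 left out are listed under names that this annotation does not give (AT1G06000, AT4G27560, AT4G27570, AT3G21790, AT5G03490 and AT3G55700). Of these, AT1G06000, AT4G27560 (-1.34) and AT5G03490 (-1.15) fell in WT at 37 °C at ZT1 and the other 3 were not called there, and at ZT6 AT1G06000 (-1.05) and AT4G27560 (-1.09) fell. Of the 5 abscisic acid genes (UGT71C5, UGT71B6, UGT71B8, UGT75B1 and UGT75B2), 1 fell at ZT1 and 3 at ZT6 in WT. UGT71B8 fell in all 4 heat comparisons (-1.59 and -1.18 at ZT1, -1.73 and -1.96 at ZT6), UGT71C5, which glucosylates abscisic acid, fell at ZT6 (-1.20) and UGT75B2 did too (-1.43), while UGT71B6 and UGT75B1 were called in no temperature comparison. Of the 5 salicylate and defence genes (UGT74F1, UGT74F2, UGT76B1, UGT71C3 and UGT76D1), 1 rose at ZT1 and 2 fell at ZT6 in WT. The salicylate glucosyltransferase UGT74F2 fell at ZT6 from 7.25 and 6.53 to 5.62 and 4.97 (LFC -1.59) but was at 4.99, 4.38, 4.45 and 4.60 against 4.29, 5.02, 5.02 and 4.93 at ZT1 (LFC 0.21), and its heat responses differed (-1.80 ± 0.38, adjusted p = 0.007). UGT76B1, which acts on salicylate and isoleucic acid, rose at ZT1 with an LFC at the threshold (1.00), a call not kept when each library was centred on its median, and UGT71C3 fell at ZT6 (-1.13). Of the 5 cytokinin and brassinosteroid genes, UGT73C1 and UGT73C6 rose at both times, the cytokinin N-glucosyltransferase UGT76C2 fell at ZT6 (-1.43), and UGT76C1 and UGT85A1 were called in no temperature comparison. Of the 3 auxin genes so named, UGT74D1, which acts on auxin and its oxidised form, fell at ZT1 (-1.12), UGT84B1 was not called and UGT84B2 was too low to be tested. Neither of the 2 jasmonate genes UGT76E1 and UGT76E2 was called in any temperature comparison. Of the 5 UGT73B genes, UGT73B2 at ZT6 was the 1 called in WT under heat, and of the sterol glucosyltransferases UGT80B1 fell at ZT6 (-1.02) and UGT80A2 was not called.

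AT2G36970, AT5G05890, AT5G38010, UGT71B8 and UGT85A2 fell in all 4 heat comparisons. AT2G36970 went from 4.23, 4.98, 3.76 and 4.13 to 1.81, 1.82, 1.94 and 1.91 in WT at ZT1 (LFC -2.40 ± 0.24, adjusted p = 2.4e-08). UGT85A2 went from 6.11 and 6.28 to 4.01 and 4.29 at ZT6 (LFC -2.05 ± 0.25, adjusted p = 0.00054), and in cca1lhy at ZT1 it fell (-1.97 ± 0.19) while its array neighbour UGT85A5 rose (1.60 ± 0.26), so members of 1 array on chromosome 1 (7890259 to 7906969) moved in opposite directions. In the array with UGT76C2 on chromosome 5 (1765390 to 1776492), 2 of 5 fell in WT and 4 of 5 in prr7prr9 at ZT6, and none rose. Of all tested members 19.7% fell in WT and 23.6% in prr7prr9 (7.16% and 7.45% of all genes). AT3G46700, in the largest array, fell at ZT6 from 4.79 and 5.06 to 2.59 and 3.20 (LFC -2.03 ± 0.32). AT2G22930 (-2.04 ± 0.33) and AT1G64920 (-1.76 ± 0.34) fell at ZT6 too, the former at levels that lie below the lowest value of ZT1. GBSS1, the starch synthase that makes amylose, went at ZT1 from 9.74, 9.56, 9.98 and 10.03 to 7.99, 7.60, 8.07 and 8.09 (LFC -1.89 ± 0.15, adjusted p = 4.9e-10), and at ZT6 from 3.49 and 3.65 to 4.40 and 4.12, which was not called.

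Of the 12 members that rose at ZT1 in WT, 7 rose at ZT6 (58.3% of 12 and 70% of 10), and of the 21 that fell, 9 fell at ZT6 (42.9% of 21 and 36% of 25), and none moved in opposite directions. Over all genes tested the same shares were 67.9% of 1794 and 54% of 2257 for those that rose and 38.8% of 1620 and 28.2% of 2230 for those that fell. The heat responses differed between times for 23 of 125 members at an adjusted p under 0.05 (fitted on 25631 genes tested at both times), 15 higher at ZT6 (background 5.23%) and 8 lower (background 4.21%). The largest differences besides those given were in GBSS1 (2.57 ± 0.22, adjusted p = 8.1e-08) and AT1G01390 (1.84 ± 0.53), and on the other side in AT2G23210 (-1.80 ± 0.43), AT2G22930 (-1.59 ± 0.43), AT1G64920 (-1.46 ± 0.37), AT3G46700 (-1.41 ± 0.38) and AT3G15940 (-1.13 ± 0.29). The values of AT2G22930 and AT1G64920 rest on ZT6 levels below the lowest ZT1 value: with the ZT6 lowest value raised to that of ZT1, the difference for AT2G22930 was 0.45 (adjusted p = 0.379) and AT1G64920 was too low to be tested. Time of day and flowcell cannot be told apart, since all ZT1 libraries were on 1 flowcell and all ZT6 libraries on another. Depth also differed between the times, and its part in the differences between times, with 5 added to each count, was not tested. Each ZT6 group rests on 2 libraries: with only the WT libraries at 37 °C and 22 °C fitted, the ZT6 heat calls in WT numbered 4 (2 in each direction), and without the WT 37 °C library numbered 3 there were 20 in place of 35.

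**Figure D3:**
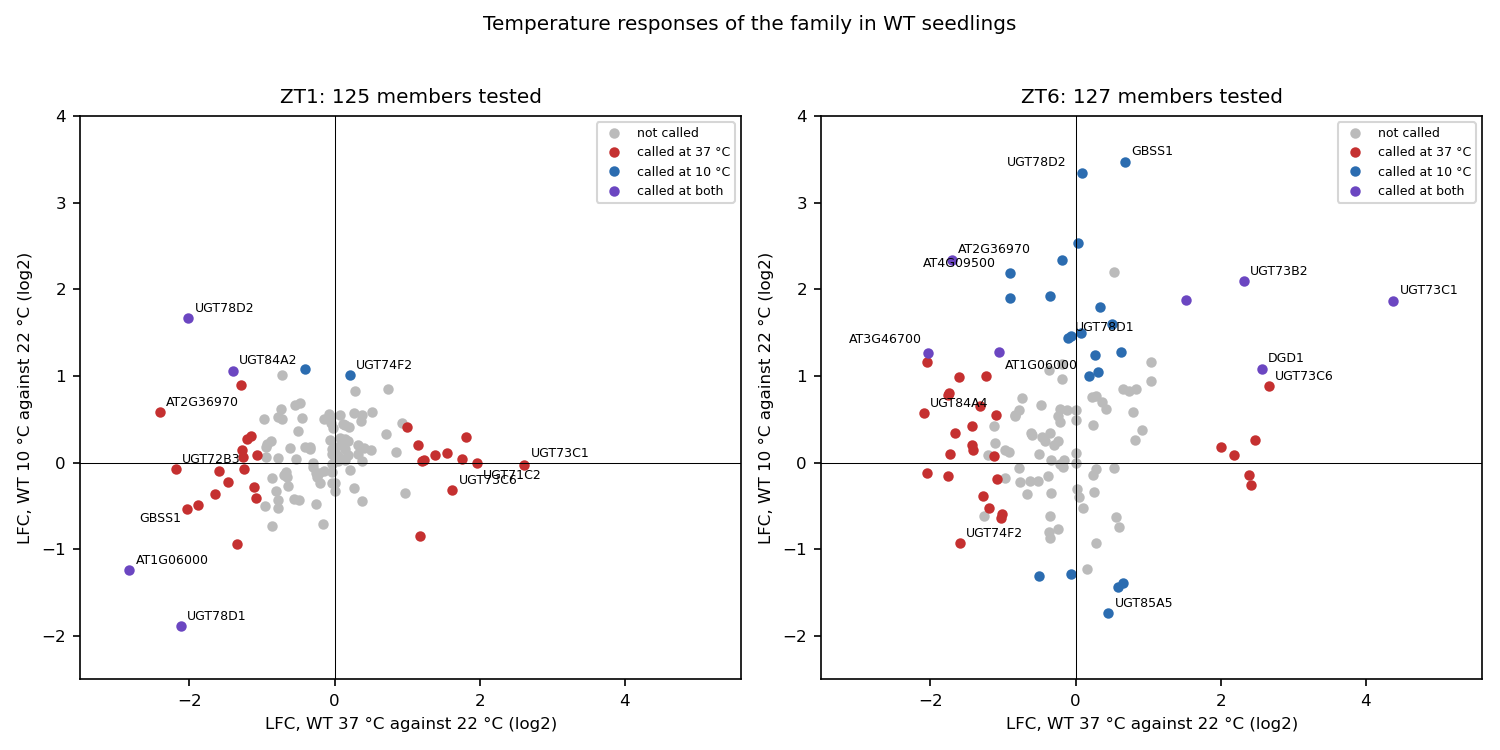
LFC at 10 °C (y axis, log2) against LFC at 37 °C (x axis, log2) in WT for every tested member at ZT1 (left) and ZT6 (right), coloured by the calls. Both axes use the same WT 22 °C libraries, so the coordinates of a point are not independent. GBSS1 and UGT78D2 lie at the top at ZT6 (3.47 and 3.35), and UGT73C1 lies furthest right (2.61 and 4.38).

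At 10 °C, 6 members were called in WT at ZT1 and 28 at ZT6. In WT at ZT1, 4 of 125 members rose (3.2%, background 1.03%) and 2 fell (1.6%, background 0.84%), and in cca1lhy 3 rose (2.4%, background 0.983%) and 6 fell (4.8%, background 1.16%). In WT at ZT6, 23 of 127 rose (18.1%, background 3.94%) and 5 fell (3.94%, background 2%), and in prr7prr9 16 rose (12.6%, background 2.19%) and 7 fell (5.51%, background 1.42%). The median LFC of the members was 0.34 in WT at ZT6 against 0 for all genes, and 0.09 against 0.01 at ZT1. None of the 6 leaf markers was called at 10 °C at either time in WT, and 1 of 8 root markers rose at ZT6. The summed root markers in WT were at 93.2 to 154 reads per 1e6 at 10 °C against 45.9 to 71.0 at 22 °C at ZT6, groups that did not overlap, and at 303 to 452 against 303.5 to 351 at ZT1. In prr7prr9 they were at 64.8 to 77.2 against 41.1 to 58.3. The part of root markers in the result was not tested.

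UGT78D2 was the 1 member that rose in all 4 cold comparisons. In WT at ZT1 it was at 9.71, 9.41 and 9.65 at 10 °C (LFC 1.66 ± 0.14, adjusted p = 2.2e-08), above all 22 °C libraries, and at ZT6 at 6.79 and 6.40 (LFC 3.35 ± 0.31, adjusted p = 0.00046), with 1.07 ± 0.13 in cca1lhy and 2.82 ± 0.31 in prr7prr9. Its flavonol partner UGT78D1 fell at ZT1 to 4.86, 4.82 and 5.24 (LFC -1.89 ± 0.21, adjusted p = 2.6e-06) but rose at ZT6 to 6.02 and 5.46 (LFC 1.44), and the 2 cold responses differed by 3.33 ± 0.33 (adjusted p = 3.1e-07). AT1G06000 did the same, at 6.46, 6.15 and 6.61 at ZT1 (LFC -1.24 ± 0.21) and 6.06 and 5.37 at ZT6 (LFC 1.28), a difference of 2.52 ± 0.35 (adjusted p = 4.7e-05). The 2 genes also fell in cca1lhy at ZT1 (-1.86 ± 0.20 and -1.12) and rose in prr7prr9 at ZT6 (1.42 and 2.28). The anthocyanin gene AT4G14090 was not called at either time (-0.48 and -0.21).

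**Figure D4:**
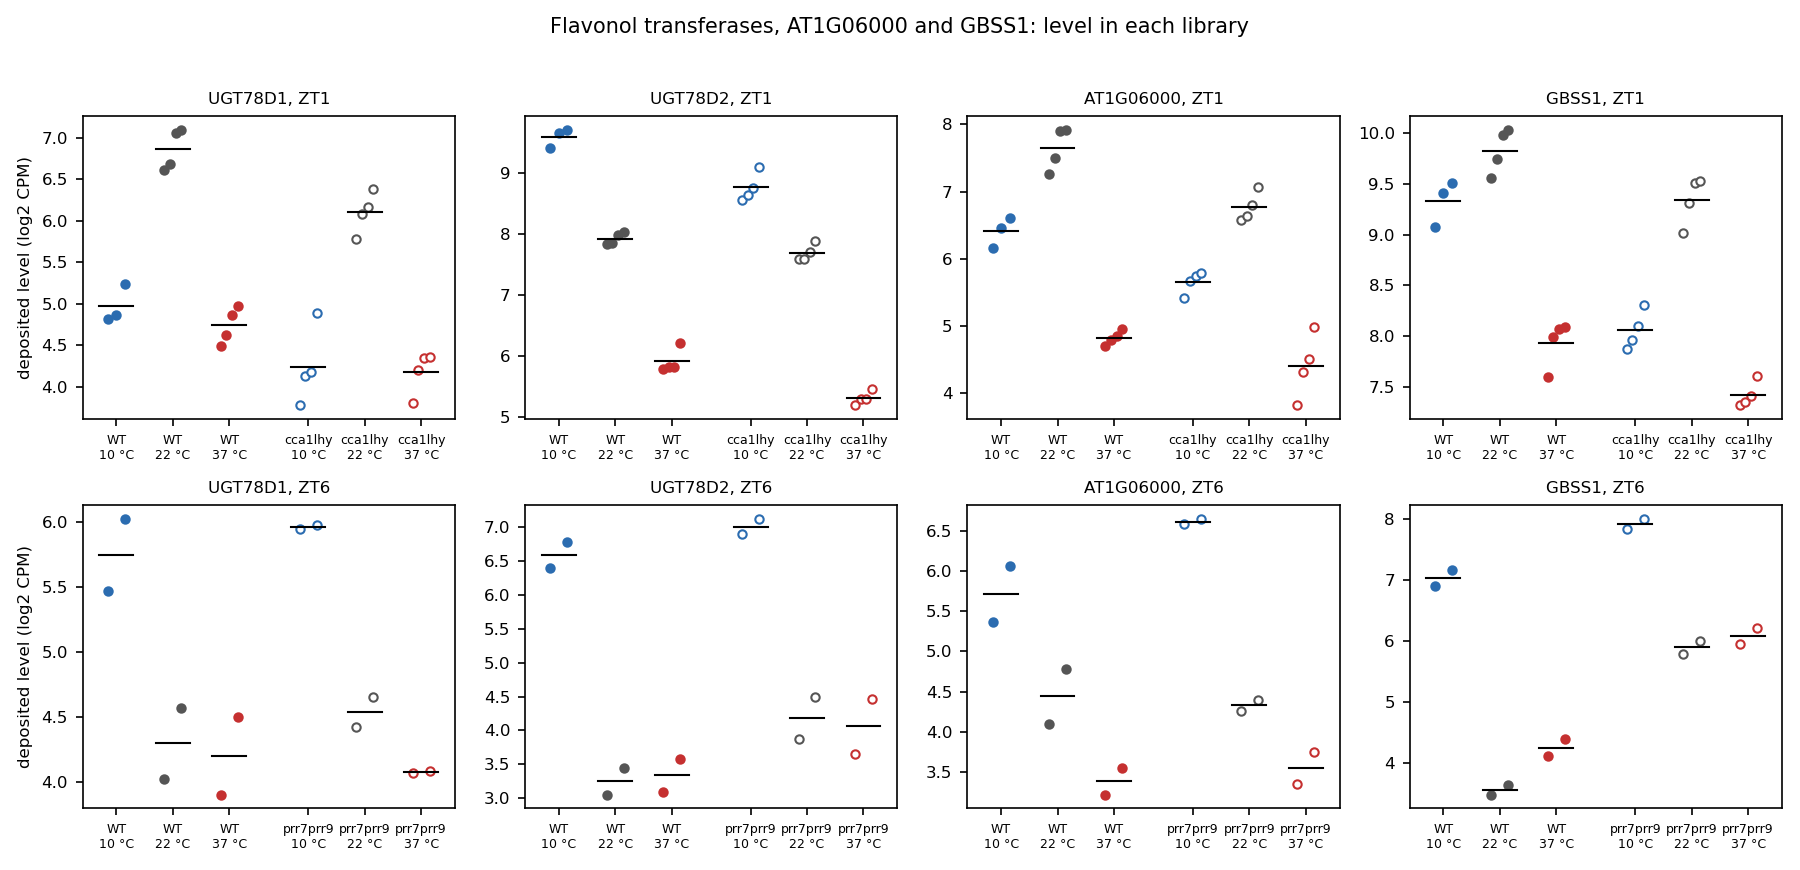
Level (log2 CPM) in every library of UGT78D1, UGT78D2, AT1G06000 and GBSS1 at ZT1 (top) and ZT6 (bottom), with WT as filled points, mutants as open points and group means as lines. The y axes differ between panels and do not start at 0. UGT78D1 at 10 °C sits below its 22 °C libraries at ZT1 (4.82 to 5.24 against 6.61 to 7.09 in WT) and above them at ZT6 (5.46 and 6.02 against 4.03 and 4.57).

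GBSS1 had the largest cold LFC of any member in WT, at ZT6, where it went from 3.49 and 3.65 in WT at 22 °C to 7.17 and 6.92 (LFC 3.47 ± 0.16, adjusted p = 1.9e-05), whereas at ZT1 it was at 9.41, 9.08 and 9.50 against 9.56 to 10.03, which was not called. The difference was 3.97 ± 0.23 (adjusted p = 6.8e-12). UGT84A2 rose at both times in WT, at ZT1 to 7.47, 6.98 and 7.48 (LFC 1.06 ± 0.20) and at ZT6 to 6.50 and 6.32 from 4.85 and 4.38 (LFC 1.80), and UGT84A1 rose at ZT1 (1.08 ± 0.24). UGT72B1 (1.47), UGT72B3 (1.90) and AT1G01390 (2.34 ± 0.47) rose at ZT6, the last with 1 library at 3.12 and the other at 1.53, against 0.25 and -0.27 at 22 °C. AT4G09500 rose at ZT6 from 2.83 and 2.61 to 4.89 and 4.91 (LFC 2.18 ± 0.18, adjusted p = 0.00025), and AT2G36970 from 2.13 and 1.40 to 4.23 and 3.98 (LFC 2.34 ± 0.50). AT1G05675 (2.54 ± 0.47) rose from the lowest ZT6 values, -1.27 and -1.68, to 0.35 and 1.78.

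The hormone-linked members that rose at 10 °C at ZT6 in WT were UGT76B1 (1.27), UGT76D1 (1.92 ± 0.49), UGT74D1 (1.60) and UGT73C1 (1.87), and none of the 5 abscisic acid genes was called at either time. UGT74F2 behaved otherwise: in WT at ZT1 it rose to 5.86, 5.73 and 5.24 (LFC 1.01 ± 0.23, adjusted p = 0.0086) and in cca1lhy by 1.49 ± 0.21, while at ZT6 it was at 5.89 and 6.02 against 7.25 and 6.53 at 22 °C (LFC -0.93, not called) and fell in prr7prr9 (-1.68 ± 0.32). The difference in WT was -1.94 ± 0.39 (adjusted p = 0.0026). The 5 members that fell at 10 °C in WT at ZT6 were UGT85A5 (-1.74 ± 0.27), UGT85A3 (-1.43 ± 0.36), AT2G36770 (-1.39 ± 0.24), AT2G18560 (-1.31 ± 0.23) and UGT85A4 (-1.29 ± 0.28), and 4 of them, all but UGT85A3, also fell in prr7prr9.

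Cold responses differed between the times for 33 of 125 members, 22 higher at ZT6 (background 5.77%) and 11 lower (background 5.13%). Beside those named, they were higher at ZT6 in AT1G01390 (2.87 ± 0.54), AT1G05675 (2.66 ± 0.49) and AT4G09500 (2.51 ± 0.30), and lower in AT4G15260 (-1.71 ± 0.39), UGT85A4 (-1.70 ± 0.37), AT2G36770 (-1.42 ± 0.37), UGT85A5 (-1.39 ± 0.39) and AT3G21790 (-1.38 ± 0.26). Of the WT levels of AT1G05675 at 22 °C and 10 °C at ZT6, 1 of 4 lay above the lowest ZT1 value, and with the ZT6 lowest value raised to that of ZT1 it was too low to be tested, while the difference for AT1G01390 became 1.63 (adjusted p = 0.019). At ZT6 the count of cold calls in WT went from 28 to 13 without the WT 10 °C library numbered 1, to 17 and 18 without the 22 °C library numbered 2 or 3, and to 1, GBSS1, with only the libraries compared. In prr7prr9 the largest cold LFC was that of AT2G22590 (3.54 ± 0.59, adjusted p = 0.011), and with only its own 4 libraries fitted no member was called there in place of 23.

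In all, 76 members were called in at least 1 of the 8 temperature comparisons (59.8% of the 127 tested at 1 time or both, against 27.9% of 31231 genes). Of the other 53, 51 were tested and called in none, and UGT84B2 and UGT79B6 were tested at neither time. Those called in none included UGT88A1 and UGT71C4, which are among the highest members at ZT6 per coding length. Of the 18 members without the family domain, 2 rose and 1 fell in WT at 37 °C at ZT1, and 2 rose and 2 fell at ZT6, against 10 and 20 of 107 tested at ZT1 and 8 and 23 of 109 at ZT6 for members with it.

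Few members passed the DEG thresholds between a double mutant and WT, and few of all genes did. For cca1lhy the counts rest partly on the fold threshold. An unadjusted p under 0.05 was seen in 30 of 125 members for 22 °C (24%, against 14.7% of all genes). It was seen in 36 for 37 °C (28.8%, against 20.3%) and 25 for 10 °C (20%, against 10.4%). With no fold threshold, 5 members were higher and 4 lower for 22 °C by adjusted p under 0.05. These numbers were 6 and 8 for 37 °C and 3 and 8 for 10 °C. With the fold threshold, 1 of 125 members was called between cca1lhy and WT at 22 °C, and it was lower (background 0.385% lower, 1.33% higher). This was AT1G01390, at 4.20, 4.61, 4.21 and 4.08 in WT and 1.96, 2.22, 1.82 and 2.61 in cca1lhy (LFC -2.12 ± 0.25, adjusted p = 3.2e-06). At 10 °C 4 members were lower (background 0.455%) and none higher (background 1.12%): AT1G01390 (3.78, 3.62 and 3.83 against 1.80, 1.99, 1.50 and 2.02, LFC -1.92 ± 0.27), GBSS1 (-1.27 ± 0.16, adjusted p = 2e-05), UGT84A1 (-1.13 ± 0.24) and UGT72B3 (-1.12 ± 0.24). At 37 °C 1 was lower (background 0.824%), AT4G19460 (2.15, 2.62, 2.62 and 2.98 against 1.23, 1.23, 2.15 and 1.23, LFC -1.14 ± 0.24, adjusted p = 0.0037), with 3 of the 4 mutant libraries at no read, and none was higher (background 1.31%). That 37 °C call was not kept with only the libraries compared in the fit (adjusted p = 0.089), and 2 to 4 members were called when any 1 of 7 of these 8 libraries was left out. AT1G01390 (chromosome 1, 148013 to 149848) and UGT72B3 (154367 to 156178) lie 110 and 116 kb from LHY, and the part of this position in the result was not tested.

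The heat response itself differed between cca1lhy and WT for 3 members at an adjusted p under 0.05, 1 less lowered in cca1lhy (background 0.385%) and 2 more lowered (background 0.529%). AT1G01390 fell in WT but was already near the lowest value in cca1lhy at 22 °C (1.23, 2.24, 1.23 and 1.73 at 37 °C, interaction 1.48 ± 0.35, adjusted p = 0.039). AT4G09500 was at 3.60, 3.03, 3.76 and 3.78 at 22 °C and 3.93, 3.43, 3.02 and 3.81 at 37 °C in WT, but at 4.32, 3.85, 4.40 and 4.36 against 2.90, 2.55, 2.79 and 3.11 in cca1lhy (interaction -1.40 ± 0.32, adjusted p = 0.033). UGT71C5 went from 4.34, 4.56, 4.33 and 4.41 to 3.53, 3.68, 3.76 and 3.73 in WT and from 5.21, 5.48, 5.05 and 5.35 to 3.38, 3.92, 3.38 and 3.54 in cca1lhy (interaction -0.98 ± 0.20, adjusted p = 0.019). The interactions of AT1G01390 and AT4G09500 did not pass the threshold with no filter on low values or with only the 4 groups compared in the fit. Of the single libraries, leaving out WT 22 °C replicate 1 or 2, cca1lhy 22 °C replicate 1 or 3 or cca1lhy 37 °C replicate 2 left 1 call, and leaving out cca1lhy 10 °C replicate 3 gave 5. No interaction with 10 °C passed in limma (background 0% more raised, 0.0117% more lowered, lowest adjusted p = 0.603). At an unadjusted p under 0.05 there were 16 of 125 members (12.8%, against 4.18% of all genes).

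**Figure D5:**
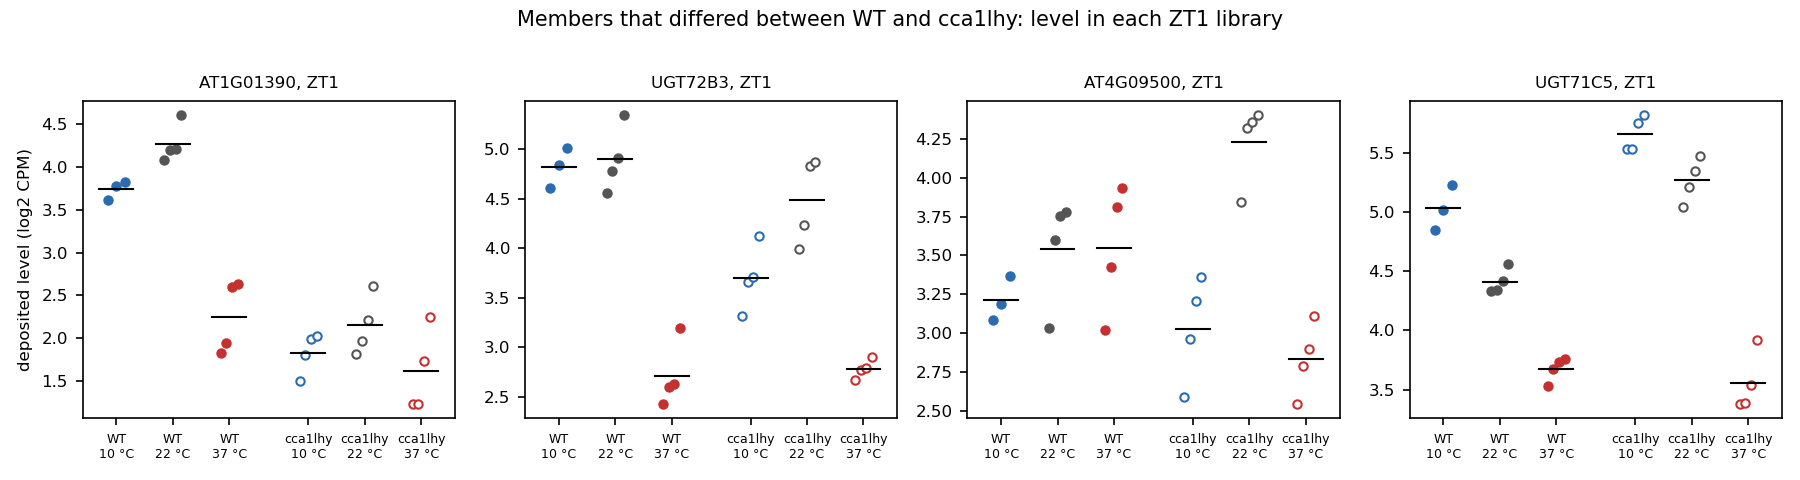
Level (log2 CPM) in every ZT1 library of 4 members that differed between WT (filled points) and cca1lhy (open points), with group means as lines. The y axes differ between panels and do not start at 0. AT1G01390 lies at 4.08 to 4.61 in WT and 1.82 to 2.61 in cca1lhy at 22 °C.

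At ZT6 GBSS1 was the 1 member called between prr7prr9 and WT, at 22 °C (background 0.215% higher, 0.0707% lower) and at 37 °C (background 0.106% higher, 0.0385% lower). It was at 3.49 and 3.65 in WT and 6.01 and 5.80 in prr7prr9 at 22 °C (LFC 2.33 ± 0.16, adjusted p = 0.00036), and at 4.40 and 4.12 against 5.96 and 6.22 at 37 °C (LFC 1.83 ± 0.16, adjusted p = 0.0029). With only the 4 libraries of a comparison in the fit neither call was kept (adjusted p = 0.276 and 0.615). With all groups fitted, an unadjusted p under 0.05 was seen in 14 of 127 members for 22 °C (11%, against 6.8% of all genes). It was seen in 13 for 37 °C (10.2%, against 5.68%). At 10 °C no member was called in limma (background 0.0674% higher, 0.0739% lower), with 21 of 127 at an unadjusted p under 0.05 (16.5%, against 9.89% of all genes). No member's interaction of prr7prr9 with 37 °C passed in limma (background 0% more raised, 0.00321% more lowered), and none with 10 °C did (background 0.0289% more raised, 0.0546% more lowered, lowest adjusted p of 0.0631). At an unadjusted p under 0.05 there were 8 members for 37 °C (6.3%, against 3.48% of all genes) and 13 for 10 °C (10.2%, against 7.17%).

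Some of the genes that supply UDP-sugars, the donors of the family, were called. Of 21 such genes, 2 rose (background 6.97% of all genes) and 6 fell (background 6.3%) in WT at 37 °C at ZT1. The UDP-glucose pyrophosphorylase UGP2 (2.03 ± 0.21) and the sucrose synthase SUS1 (1.67 ± 0.19) rose. The UDP-glucose dehydrogenases UGD2 (-1.13), UGD3 (-1.96) and UGD4 (-1.52) and the UDP-rhamnose synthases RHM1 (-1.10), RHM2 (-1.06) and RHM3 (-1.17) fell. At ZT6 UGP2 rose (3.17, background 7.25%) and UGD3 fell (-1.60, background 7.16%). RHM1, whose product is the donor of UGT78D1, fell at 10 °C at ZT1 (-1.38) and rose at ZT6 (1.37), a difference of 2.75 between the times.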

How the data were processed

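RNA was measured in 35 whole-seedling libraries as single-end reads of 75 bp. Reads were trimmed by the authors (cutadapt) and mapped with TopHat2 (version 2.0.14), which ran Bowtie2 (version 2.2.5), onto the TAIR10 genome. The authors counted reads over Araport11 genes, added 5 to each count, scaled libraries in edgeR, and deposited log2 CPM values after quantile normalisation in limma's voom, for ZT1 and ZT6 separately. These values are not counts, and quantile normalisation gives every library of a time the same distribution, so a shift of the whole transcriptome cannot be seen. The deposited fold changes and FDR values were not used.

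All 6 groups of a time were fitted together in limma 3.58.1 (R 4.3.3, intensity trend, no replicate block), over genes that rose above the floor of the table in 3 or more (ZT1) or 2 or more (ZT6) libraries, with Benjamini-Hochberg adjustment. DEGs had an absolute LFC over 1 with an adjusted p under 0.05, and interactions and differences between times an adjusted p under 0.05. The ± beside an LFC is its standard error. Values stand in replicate order. ZT1 libraries are described as biological replicates and ZT6 libraries only as replicates, so ZT6 p-values measure the spread between libraries, which may be technical. At ZT6 the 22 °C and 37 °C columns are numbered 2 and 3 and the labels 1 and 2, so these columns were matched to groups and not to single samples. No 2 libraries held identical values.

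Depth was recovered from the steps between low values (largest residual 7.58% at ZT1 and 4.82% at ZT6), and levels per coding kb from the reads so obtained. Positions, coding sequences and promoters came from RefSeq TAIR10.1, in which all 129 members were found, with Biopython 1.88. Scripts were tested on simulated data. The members and the gene lists were chosen with earlier results of these data known. Genes named are, per comparison, the called members with the largest LFC (up to 8 each way for WT temperature effects, 4 for other comparisons, 6 for differences between times), the members of the role lists and the 5 highest per coding length. Others were chosen after their values were seen. Alternatives were other filters, no intensity trend, median centring, a replicate block, only the groups compared, no fold threshold and each library left out, and, added after the data were seen, a raised ZT6 lowest value and a block by column number at ZT6.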

Additional observations from a re-analysis of the deposited data

Results flagged for a closer look

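Within groups of 4 libraries, 1 value stood apart from the other 3, relative to the range of its group, in 11 of 125 groups of the 25 members shown by library. For values above the lowest value chance flags about 1 in 20. This rate does not cover AT4G19460, AT5G65550 and AT1G05675 at 22 °C, where the other 3 libraries were at no read (1.23). In WT at 37 °C replicate 1 was apart in UGT71C2 (4.89, others 4.69 to 4.72), UGT78D2 (6.22, others 5.80 to 5.83) and UGT74F2 (4.29, others 4.93 to 5.02), and replicate 2 in UGT71B5 (2.80, others 2.60 to 2.63). In WT at 22 °C UGT85A2 was low in replicate 2 (4.31) and AT5G65550 was above the lowest value in replicate 1 alone (1.36). In cca1lhy the values apart were UGT74F2 at 10 °C in replicate 3 (5.80, others 6.71 to 6.81), AT4G09500 at 22 °C in replicate 2 (3.85), AT4G19460 at 37 °C in replicate 3 (2.15), and AT1G05675 at 10 °C in replicate 1 (2.09) and at 22 °C in replicate 3 (1.36).

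The heat response differed between cca1lhy and WT, by a test of the interaction in limma, in AT1G01390 (1.48), AT4G09500 (-1.40) and UGT71C5 (-0.98). The WT heat response differed between ZT6 and ZT1 in GBSS1 (2.57), UGT78D2 (2.1), UGT78D1 (2.02), AT1G01390 (1.84), AT1G06000 (1.77) and UGT73C1 (1.76), which were higher at ZT6, and in UGT74F2 (-1.80), AT2G23210 (-1.80), AT2G22930 (-1.59), AT1G64920 (-1.46), AT3G46700 (-1.41) and AT3G15940 (-1.13), which were lower. With the ZT6 lowest value raised to that of ZT1, the difference for AT2G22930 became 0.45 and AT1G64920 was too low to be tested. The cold response was higher at ZT6 in GBSS1 (3.97), UGT78D1 (3.33), AT1G01390 (2.87), AT1G05675 (2.66), AT1G06000 (2.52) and AT4G09500 (2.51), and lower in UGT74F2 (-1.94), AT4G15260 (-1.71), UGT85A4 (-1.70), AT2G36770 (-1.42), UGT85A5 (-1.39) and AT3G21790 (-1.38). With the raised lowest value AT1G05675 was too low to be tested and the difference for AT1G01390 became 1.63.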

How the results depend on the processing

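Of 142 named calls, 71 were kept under every alternative run and 80 under every one other than leaving out libraries. With no fold threshold the calls became 59 for WT heat and 12 for WT cold at ZT1. With only the groups compared in the fit they became 0 for cca1lhy against WT at 37 °C, 1 for its interaction with 37 °C, 4 for WT heat and 1 for WT cold at ZT6, 18 for prr7prr9 heat, 0 for prr7prr9 cold, and 0 for prr7prr9 against WT at 22 °C and at 37 °C. With no filter on low values they became 1 for the cca1lhy interaction with 37 °C, 18 for WT cold at ZT6, 1 for prr7prr9 against WT at 10 °C and 2 for its interaction with 10 °C, and with a stricter filter 2 and 1 for the latter pair. Without the trend, prr7prr9 against WT at 10 °C gave 1. With the ZT6 lowest value raised to that of ZT1, an alternative chosen after seeing the data, WT heat at ZT6 gave 22, and AT2G22930 went to an LFC of 0 there and a time difference of 0.45, since its ZT6 values lie below that floor. The cause of the other changes was not tested.

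Leaving out 1 library at a time gave 32 to 39 calls for WT heat and 4 to 7 for WT cold at ZT1, 31 to 36 and 8 to 10 for cca1lhy, 1 to 2, 1 to 4 and 4 for cca1lhy against WT at 22, 37 and 10 °C, 1 to 5 and 0 for its interactions with 37 and 10 °C, 20 to 35 for WT heat and 13 to 27 for WT cold at ZT6, 28 to 42 and 10 to 24 for prr7prr9, 1, 1 to 2 and 0 for prr7prr9 against WT at 22, 37 and 10 °C, 0 for both its interactions, and 13 to 25 and 25 to 35 for the time differences under heat and cold. The counts moved by over 1.5 times for cca1lhy against WT at 22 °C without WT 22 °C replicate 1 (2), for prr7prr9 heat without its 22 °C library numbered 2 (28), for prr7prr9 cold without its 22 °C library numbered 3 (12) or 2 (10) or its 10 °C library numbered 2 (10) or 1 (11), for prr7prr9 against WT at 37 °C without its 37 °C library numbered 2 (2), and for the heat time difference without the WT ZT6 37 °C library numbered 3 (14) or 2 (15) or the 22 °C library numbered 2 (13). The replicate block at ZT1 changed none of 56 named calls, and same-numbered libraries deviated together little (median r = 0.018 over 55 pairs, 0.0019 over 165 other pairs, 10 of 23 libraries closest to their own number). At ZT6 columns and labels carry different numbers. A replicate block by the number in the column names, chosen after seeing the data, gave 18 calls for WT cold and kept 54 of 62 named calls, and same-numbered 22 °C and 37 °C libraries had r from -0.398 to 0.216 over 6 pairs of groups, so the numbers were not taken as pairs. At 1.1 M reads (M for 1e6) the shallowest ZT1 libraries limit what can be said of the lowest members.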
